A study of Mus musculus with 12 samples.

Results

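Liver RNA was compared between mice without a working Mettl5 gene (KO) and controls (WT) over every gene of the deposited count table. The KO libraries come from mice A, C and F and the WT libraries from mice B, D and E, which makes 6 of the 12 libraries of the series, the other 6 being brain. In the KO line exon 2 of Mettl5 had been floxed in C57bl/6 x 129S6 F1 embryonic stem cells and deleted in all tissues with CMV-driven Cre, and the line was crossed back to B6. Every cell type of a KO liver was therefore affected. The labels call the controls WT, but parts of the study's text describe them as heterozygous, and WT stands here for the libraries labelled so. The study used both sexes and a range of ages, and the labels give neither for a mouse, nor its litter, collection time or library batch. Only the mouse letter marks the libraries as separate animals.

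METTL5 adds a methyl group to an adenosine of 18S rRNA, the RNA of the small ribosomal subunit. The mass of the liver is mostly hepatocytes, which make plasma proteins, store and release glucose, and clear amino acids, drugs and bile acids, with different tasks near the portal and the central veins. Around them lie Kupffer cells (the resident macrophages), stellate cells (vitamin A storing pericytes), sinusoidal endothelium, bile duct cells and blood cells. Gene lists, 40 in all, were drawn up for these hepatocyte programmes, for stress and signalling responses and for the other cell types, and the question was which of them differed between the genotypes. In bulk tissue fewer cells of a type and less RNA per cell cannot be told apart.

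Library totals ran from 16145754 to 21623180 counts. Normalised read counts (CPM) are listed for mice B, D and E in WT and for mice A, C and F in KO, and a value after ± is the SD over the 3 mice of a genotype. Albumin (Alb), the main product of hepatocytes, was at 55436 ± 6811 CPM in WT and 54972 ± 1898 CPM in KO. Skeletal muscle genes, of which none of 10 was tested, summed to at most 1.01 CPM in a library. WT mouse E and KO mouse F lacked Y-linked transcripts and had 19028 and 16951 Xist counts. These 2 libraries stood apart from the other 4 on the first principal component, which held 50.5% of the variance. On the second, with 19.8%, the WT libraries lay between 12.2 and 22.6 and the KO libraries between -20.3 and -10.5. The mitochondrial rRNAs took 10.7 to 16.9% of counts in WT and 7.36 to 8.66% in KO, without overlap (exact permutation p 0.1, two-sided, the smallest that 3 against 3 libraries allow, and 0.15 adjusted over 3 shares). The 10 highest genes took 34.4% ± 2.65 in WT and 30.2% ± 0.286 in KO (exact permutation p 0.1). With mitochondrial genes left out these shares were 25.2% ± 1.68 and 26.2% ± 0.415, and the groups overlapped.

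Mettl5 (ENSMUSG00000051730.15, mm10 chromosome 2, 69871198 to 69885615) was at 14.9, 8.13 and 8.35 CPM in WT and at 3.85, 3.64 and 4.07 CPM in KO. All KO libraries lay below all WT libraries (log2 fold change -1.44, SE 0.26, edgeR adjusted p 0.376). The count covers all exons and so includes transcripts that lack exon 2. Ssb encodes the La protein, and its last bases overlap those of Mettl5 on the opposite strand (chromosome 2, 69861562 to 69871846). It was at 66.3, 27.4 and 54.3 CPM in WT and 23.7, 17.5 and 19.9 CPM in KO, also without overlap (log2 fold change -1.28, SE 0.31, edgeR adjusted p 0.413).

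In the fit by genotype alone the genotypes differed little over all genes against the spread between mice. That spread includes the difference between mice with and without Y-linked transcripts. Of 14075 genes tested with the quasi-likelihood test of edgeR, 0 (0%) reached an adjusted p under 0.1, the lowest being 0.317. Unadjusted, 403 genes were higher in KO (2.86%) and 656 lower (4.66%) with p under 0.05. The 3 KO libraries lay above the 3 WT libraries for 915 genes (6.5%) and below them for 906 (6.44%). DESeq2 called 171 genes, 37 higher and 134 lower. With the absence of Y-linked transcripts in mice E and F as a covariate, edgeR called 93 genes, of which 28 were higher (0.199% of those tested) and 65 lower (0.462%). Of these 93, 58 were also called by DESeq2. A gene is said below to be called with the covariate where it is one of the 93, and fold changes are those of the fit without covariate unless stated. Lists are described by their members on each side, against the shares of 2.86% and 4.66% with an unadjusted p under 0.05, and by their median on the log2 scale, against -0.0023 over all genes.

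**Figure D1:**
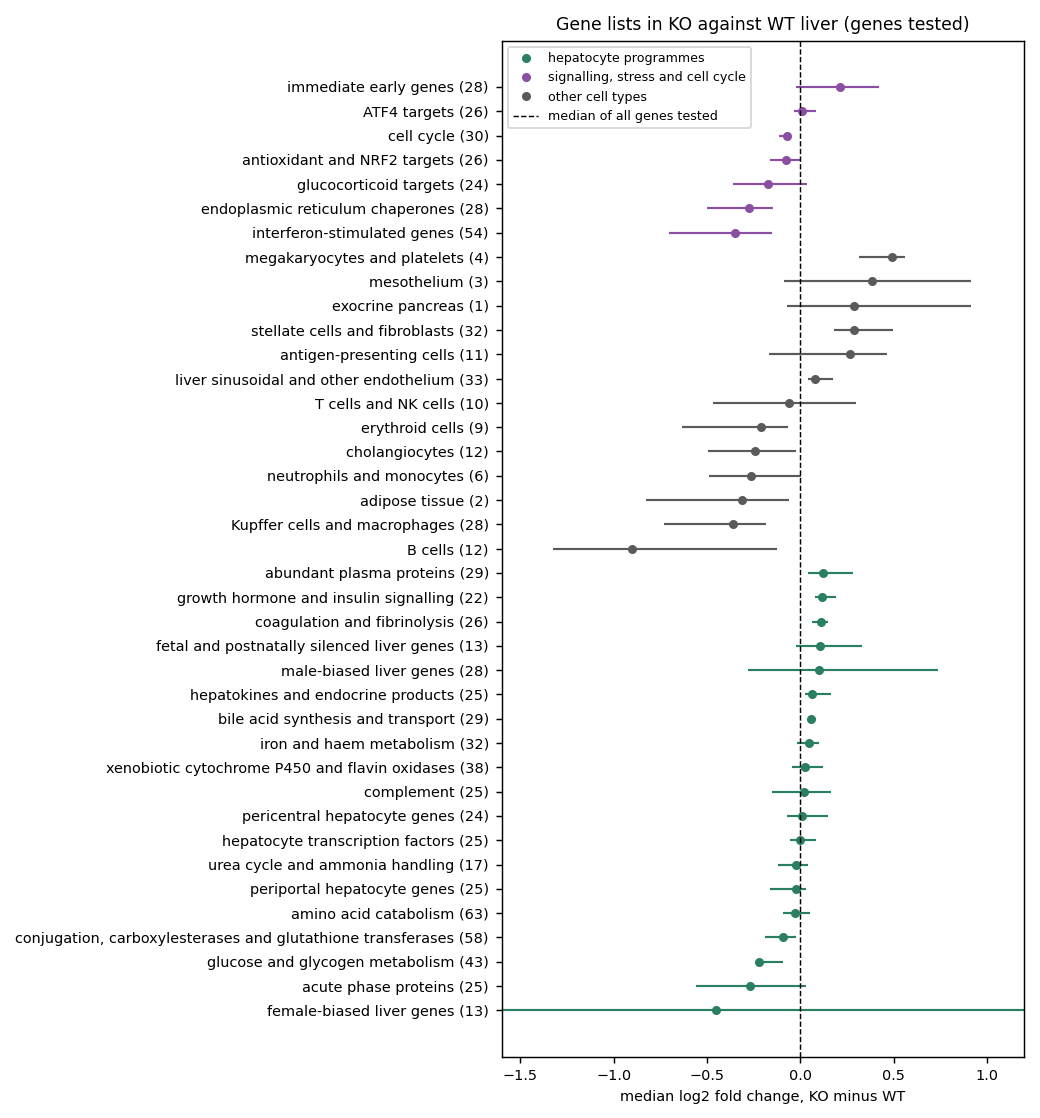
Median log2 fold change (KO minus WT, x axis) of each gene list, with the number of genes tested in brackets. Bars run from the lowest to the highest median with 1 library left out, the dashed line is the median of all genes, and the bar of the female-biased genes runs past both ends of the axis (-4.00 to 2.25). Stellate cell genes lay to the right, and ER chaperones, interferon-stimulated genes, Kupffer cell genes and B cell genes to the left, whichever library was left out.

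The genes with the smallest p-values outside the lipid, clock and heat shock lists included several secreted or signalling proteins on the higher side. They were found through their p-values, and such proteins were not counted over all genes. These leading genes were named only where the genotypes did not overlap, so their separation is no test. Adgrf1, an adhesion G protein-coupled receptor, was at 4.89, 5.38 and 7.55 CPM in WT and 29.9, 19.4 and 17.4 CPM in KO (log2 fold change 1.90, SE 0.25, edgeR adjusted p 0.317, with the covariate 0.0476). Every KO library was more than 2 times the highest WT library. Enho, which encodes the secreted peptide adropin, was at 5.51, 7.75 and 8.91 CPM in WT and 21, 17.2 and 35.6 CPM in KO (1.73, SE 0.30, edgeR adjusted p 0.376, with the covariate 0.0211). Igfbp2, a circulating binding protein of insulin-like growth factors, was at 258, 175 and 324 CPM in WT and 530, 542 and 634 CPM in KO (1.17, SE 0.22, edgeR adjusted p 0.376, with the covariate 0.0256). For both the groups were apart and KO mouse F was highest.

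Irf5, an interferon regulatory transcription factor, was at 14, 16.5 and 14 CPM in WT and 26, 26.1 and 27.5 CPM in KO (log2 fold change 0.84, SE 0.13, edgeR adjusted p 0.317, with the covariate 0.0267). Its libraries were close together within each genotype. Smad9, which carries bone morphogenetic protein signals, was at 7.72 ± 1.84 CPM in WT and 18.8 ± 5.50 CPM in KO. Avpr1a, the vasopressin receptor of hepatocytes, was at 29.7 ± 5.25 and 49.9 ± 3.58 CPM. Adamtsl2, a secreted matrix protein, was at 4.42 ± 1.78 and 12.3 ± 3.05 CPM. All 3 were called higher with the covariate (edgeR adjusted p 0.0256, 0.0398 and 0.0256). So were the ubiquitin ligase subunit Fbxo21 (0.78), the secreted protein Ccdc3 (1.43) and the cell cycle transcription factor E2f8 (1.30). Phlda1, with a log2 fold change of 1.89, and the glucosylceramidase Gba2, with 0.78, were called by DESeq2 (adjusted p 1.85e-07 and 0.0671) but not with the covariate.

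On the lower side, Anks4b, a scaffold protein of epithelial cells, was at 145, 123 and 160 CPM in WT and 62.3, 82.9 and 71.6 CPM in KO (log2 fold change -0.98, SE 0.16, edgeR adjusted p 0.317, with the covariate 0.0256). The groups were far apart. Several of the other leading genes act in translation or ribosome assembly. Nemf, a factor of quality control on stalled ribosomes, was at 50.7, 38.8 and 45.8 CPM in WT and 27.8, 22.9 and 21.2 CPM in KO (-0.91, SE 0.15, edgeR adjusted p 0.368, with the covariate 0.0352). Eif2s2, the beta subunit of initiation factor eIF2, was at 55.8 ± 8.07 CPM in WT and 32.3 ± 4.39 CPM in KO. Eif3j1, an initiation factor of the small subunit, was at 30.3 ± 5.48 and 16.1 ± 3.16 CPM. The rule for naming leading genes required each of these to be lower in every KO library than in every WT library. Npm1, the nucleolar chaperone of ribosome assembly, was at 86.3 ± 11.1 CPM in WT and 53.7 ± 2.62 CPM in KO. Eif2ak2, the kinase PKR that phosphorylates eIF2 and is induced by interferon, was at 26.9 ± 2.86 and 16.6 ± 1.82 CPM. These 5 were called lower with the covariate (edgeR adjusted p 0.0267 to 0.0914). They were found through their p-values, and no list of translation factors was compared. The GC content was 38.7% for Eif2s2, 42.4% for Nemf and Npm1, 42.5% for Eif3j1 and 43.9% for Eif2ak2. All but Eif2ak2 lie in the lowest of the 5 bins of GC content described below. In that bin 340 genes were lower and 32 higher with an unadjusted p under 0.05.

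The remaining leading genes on the lower side had various roles. G6pdx, the first enzyme of the pentose phosphate pathway, was at 9.05 ± 2.37 CPM in WT and 4.10 ± 0.461 CPM in KO. Leap2, a liver peptide that blocks the ghrelin receptor, was at 31.2 ± 4.66 and 18 ± 2.94 CPM. Spc25, a kinetochore protein, was at 3.52 ± 1.22 and 1.13 ± 0.103 CPM. These 3 were called lower with the covariate, while Krcc1, at 49.2 ± 13.8 and 24.7 ± 0.771 CPM, was not. Spc25 lies on chromosome 2 at 69193895 to 69206194, within 1 Mb of Mettl5, where sequence of the stem cells' strains can remain after crossing back. The part of strain in these values was not tested.

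**Figure D2:**
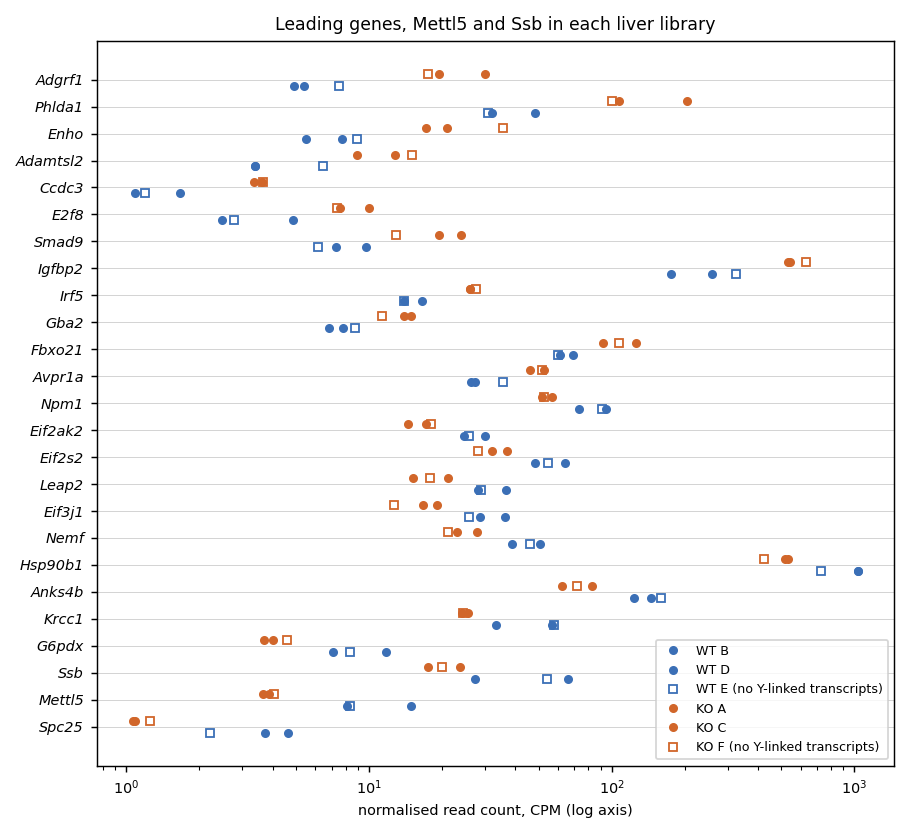
Normalised read counts (CPM, log axis) of the leading genes, Mettl5 and Ssb in each liver library, with open squares for mice E and F, which lack Y-linked transcripts. The 3 KO and the 3 WT libraries are apart for every gene, which the rule for naming leading genes required, so the separation is no test.

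Glucose and glycogen metabolism genes lay mostly on the lower side. Of its 43 genes, all tested, 33 were lower and 10 higher in KO. With an unadjusted p under 0.05 there were 10 lower and 0 higher. For 9 all KO libraries lay below all WT libraries, as they did for 6.44% of all genes tested. The median was -0.22, between -0.23 without WT mouse E and -0.09 without WT mouse B. The list summed to 12389, 10119 and 9609 CPM in WT and to 8753, 9393 and 8851 CPM in KO, so the groups were apart but WT mouse E and KO mouse C were close. None of the 43 is among the genes that the study called in liver.

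Pklr, the liver pyruvate kinase at the last step of glycolysis, was at 350, 235 and 255 CPM in WT and 164, 193 and 120 CPM in KO (log2 fold change -0.82, SE 0.21, edgeR adjusted p 0.413, with the covariate 0.0960). The groups did not overlap, and no other gene of the list was called with the covariate. Ppp1r3b, the subunit that brings protein phosphatase 1 to glycogen, was at 498, 316 and 441 CPM in WT and 167, 277 and 249 CPM in KO, without overlap (-0.86, SE 0.23, edgeR adjusted p 0.425).

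Enzymes of fructose breakdown stood beside them. Khk, the ketohexokinase, was at 223 ± 28.9 CPM in WT and 153 ± 20.7 CPM in KO. Tkfc, the triose kinase, was at 238 ± 67.8 and 166 ± 24 CPM. Both act in the same pathway, and the groups overlapped for Tkfc but not for Khk. Also lower with an unadjusted p under 0.05 were the fructose bisphosphate regulator Pfkfb1 (-0.48), the glycogen branching enzyme Gbe1 (-0.46), the kinase of pyruvate dehydrogenase Pdk1 (-0.36) and the glucose 6-phosphate carrier Slc37a4 (-0.33). Pck1, the cytosolic PEP carboxykinase, was at 1510 ± 115 CPM in WT and 1805 ± 361 CPM in KO (0.26), and Fbp1, a fructose bisphosphatase, at 587 ± 56.2 and 495 ± 42.6 CPM (-0.25), neither with an unadjusted p under 0.05.

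Chaperones of the endoplasmic reticulum (ER) fold the proteins that hepatocytes secrete. The unfolded protein response raises their transcription through the factors ATF6 and XBP1, and ATF6 acts on a promoter element called ERSE, which is CCAAT and CCACG with 9 bases between (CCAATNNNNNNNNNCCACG). The 250 bases upstream of each RefSeq gene start (GRCm38.p6, the assembly of mm10) were searched for these letters on both strands. They were found in 8 of the 21 tested members with a promoter entry (38.1%) and in 0.113% of all 32851 promoters. The stretches of 6 members described here are shown because these are genes on which the response acts through a known element. They are 5′ to 3′ on the strand of the gene, with both parts in capitals, and on the reverse strand the parts read CGTGG and ATTGG.
Hspa5: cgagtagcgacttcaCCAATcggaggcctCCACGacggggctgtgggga
Hsp90b1: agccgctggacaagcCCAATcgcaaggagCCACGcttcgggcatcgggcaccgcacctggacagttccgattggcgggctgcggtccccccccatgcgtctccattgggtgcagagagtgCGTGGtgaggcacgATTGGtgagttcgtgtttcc
Dnajc3: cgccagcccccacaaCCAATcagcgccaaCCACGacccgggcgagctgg
Creld2: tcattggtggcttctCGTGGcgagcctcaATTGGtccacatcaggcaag
Pdia6: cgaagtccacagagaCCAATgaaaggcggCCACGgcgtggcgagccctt
Calr: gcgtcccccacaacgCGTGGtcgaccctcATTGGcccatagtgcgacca
The stretch of Hspa5 is chr2:34772010-34772058 (+ strand), and that of Hsp90b1, which holds the element in 2 places, is chr10:86705518-86705671 (- strand). Those of Dnajc3, Creld2 and Pdia6 are chr14:118937812-118937860, chr15:88819505-88819553 and chr12:17266476-17266524 (+), and that of Calr is chr8:84847060-84847108 (-).

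Of 28 ER chaperone genes tested, 26 were lower and 2 higher in KO, with a median of -0.27. With an unadjusted p under 0.05 there were 2 lower (Hsp90b1 and Edem1) and 0 higher. With the covariate there were 14 lower and 0 higher at that p. In that fit 1063 (7.55%) and 706 (5.02%) of all 14075 genes tested passed it in those directions. Hspa5 and Hsp90b1 were called lower with the covariate, as were 0.462% of all genes tested. Hspa5 encodes BiP, the HSP70 of the ER and a sensor of unfolded protein. It was at 1185, 1384 and 511 CPM in WT and 546, 736 and 279 CPM in KO. The groups overlapped, since WT mouse E lay below KO mice A and C, but KO mouse F lay below WT mouse E and KO mice A and C below WT mice B and D. Its log2 fold change was -0.98 (SE 0.48, edgeR adjusted p 0.727) and with the covariate -0.96 (edgeR adjusted p 0.0267).

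Hsp90b1, the HSP90 of the ER, was at 1036, 1032 and 729 CPM in WT and 519, 530 and 422 CPM in KO, without overlap (log2 fold change -0.93, SE 0.18, edgeR adjusted p 0.376, with the covariate 0.0256). Edem1, which hands misfolded glycoproteins to degradation, was at 232 ± 10.4 CPM in WT and 181 ± 13.2 CPM in KO. Dnajc3, a co-chaperone of BiP, was at 252 ± 56 and 191 ± 36.9 CPM. The members differed in size of effect and in spread. Creld2 was at 53, 106 and 13.1 CPM in WT and 17.4, 42.3 and 12.3 CPM in KO. The lectin chaperone Calr was level, at 943 ± 319 CPM in WT and 931 ± 201 CPM in KO, and the disulfide isomerase Pdia6 was at 210 ± 89.6 and 186 ± 46.7 CPM. The 8 genes with the promoter element had a median of -0.30 with 8 lower, and the 13 without it a median of -0.25 with 11 lower.

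The list score is the mean over the genes of a list of log2 CPM centred on each gene's mean. For the ER chaperones it was 0.32, 0.55 and -0.41 in WT and -0.02, 0.13 and -0.57 in KO, so mice E and F were lowest. KO minus WT was -0.38 over the 4 mice with Y-linked transcripts and -0.16 between mice F and E. The list median ran from -0.50 without WT mouse E to -0.15 without WT mouse D. Genes induced through ATF4, another arm of the stress response, were split, with 13 higher and 13 lower of 26 and a median of 0.01. With the covariate 2 of them were called lower, Ddit4 (edgeR adjusted p 0.0997) and Vldlr (0.0267), and 0 higher. Of all genes tested, 0.462% were called lower in that fit and 0.199% higher. Without the covariate 3 of the 26 had an unadjusted p under 0.05. Chac1, which degrades glutathione, was at 1.05 ± 0.714 CPM in WT and 2.39 ± 0.402 CPM in KO. Ddit4, an inhibitor of mTOR signalling, was at 4.07 ± 1.35 and 1.74 ± 0.641 CPM. Aldh1l2, a mitochondrial folate enzyme, was at 1.15 ± 0.532 and 0.544 ± 0.0679 CPM.

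**Figure D3:**
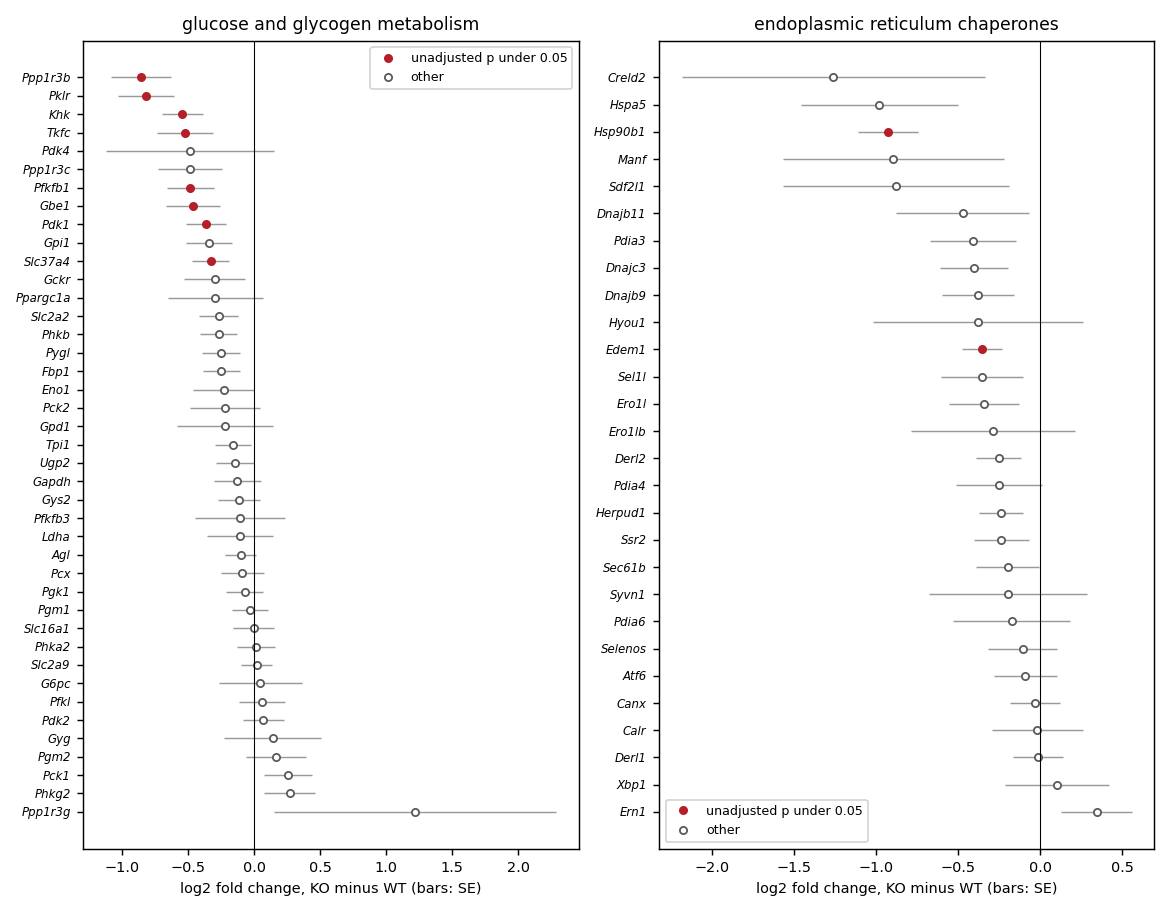
Log2 fold change (KO minus WT, x axis) of the reported genes of the glucose and glycogen list (left) and of every tested gene of the ER chaperone list (right), with bars of 1 SE and filled points for an unadjusted p under 0.05. Most genes on the left and 26 of 28 on the right lie below 0, and the bar is long for genes such as Creld2 (SE 0.92).

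Of 29 abundant plasma proteins tested 23 were higher, with a median of 0.12, and with an unadjusted p under 0.05 there were 3 higher and 0 lower. Ahsg, fetuin A, was at 2329, 2755 and 2467 CPM in WT and 3434, 3617 and 3859 CPM in KO, without overlap (log2 fold change 0.53, SE 0.15, edgeR adjusted p 0.451). The inter-alpha-trypsin inhibitor chains Itih1 (721 ± 28.4 CPM in WT and 919 ± 19.2 CPM in KO) and Itih2 (933 ± 33.5 and 1189 ± 81.7 CPM) were the other 2. The median ran from 0.04 without WT mouse E to 0.28 without WT mouse D. The list score overlapped between genotypes, at -0.50 in WT mouse E and 0.18 in WT mouse D. Mug1, a protease inhibitor, was at 2751, 3123 and 1116 CPM in WT and 5238, 4264 and 2354 CPM in KO and was called higher with the covariate (edgeR adjusted p 0.0735). Other murinoglobulins have a like sequence, and reads may have been split among them.

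Coagulation and fibrinolysis genes were higher in 21 of 26, with a median of 0.11 that was 0.06 without WT mouse E. Proc, the anticoagulant protein C (370 ± 27.7 CPM in WT and 463 ± 2.95 CPM in KO), and Serpinf2, the plasmin inhibitor (360 ± 25.5 and 452 ± 33.3 CPM), were higher with an unadjusted p under 0.05. F9, coagulation factor IX, was lower (91.4 ± 6.57 and 73.8 ± 9.35 CPM). Complement was split, with 14 of 25 higher, a median of 0.02 (-0.15 without WT mouse E, 0.17 without WT mouse D) and 0 genes at that p in either direction, although C8b was called higher with the covariate (edgeR adjusted p 0.0938). Acute phase proteins had 16 of 25 lower and a median of -0.27. Their score was lower in KO by 0.44 among the 4 mice with Y-linked transcripts and higher by 0.29 in mouse F than in mouse E, and the median ran from -0.56 without KO mouse F to 0.03 without WT mouse D. Orm1 was the single member at that p, with 374 ± 121 CPM in WT and 254 ± 50.8 CPM in KO.

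Hepatokines and other endocrine products of the liver had members far out on both sides. Of 25 tested, 15 were higher and 10 lower, with 4 higher and 3 lower at an unadjusted p under 0.05. The study called 7 members of this list, which is therefore not independent of its calls. Beside Enho, Igfbp2 and Adamtsl2 on the higher side stood Igfbp1, a binding protein that insulin represses. It was at 78.3, 61 and 56.5 CPM in WT and 321, 90 and 180 CPM in KO (log2 fold change 1.59, SE 0.45, edgeR adjusted p 0.483), so that the KO libraries were spread but all above WT. On the lower side Angptl8, which feeding induces, was at 54.2, 27.3 and 27 CPM in WT and 19.6, 21 and 12.1 CPM in KO, without overlap. The sphingomyelinase Smpd3 was at 2.92 ± 1.03 and 0.785 ± 0.389 CPM.

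Growth hormone and insulin signalling genes were higher in 16 of 22, with a median of 0.11 that was 0.19 without WT mouse E. Irs2, an insulin receptor substrate that insulin represses, was at 68, 39.8 and 52.6 CPM in WT and 235, 75.4 and 116 CPM in KO (log2 fold change 1.41, SE 0.45, edgeR adjusted p 0.542). The receptor Igf1r was at 5.82 ± 1.02 CPM in WT and 8.36 ± 0.860 CPM in KO, and Stat5b, which carries the growth hormone signal, at 73 ± 6.03 and 98.2 ± 11 CPM. The groups did not overlap for these 3, and the kinase Jak2 was lower (-0.34) with an unadjusted p under 0.05. For Igfbp1 and Irs2 alike KO mouse A was highest and KO mouse C lowest of the KO mice. Immediate early genes, which respond within minutes to growth signals or to handling, had the same order, with a list score of 0.55 in mouse A, -0.32 in mouse C and 0.08 in mouse F, against -0.30 to 0.09 in WT. Of 28 tested 20 were higher (median 0.21), and the median ran from -0.02 without KO mouse A to 0.42 without KO mouse C. Myc was at 2.16, 3.33 and 2.73 CPM in WT and 22.9, 4.14 and 8.19 CPM in KO. Egr1 was at 6.20 ± 1.85 and 17.3 ± 10.1 CPM, while Zfp36, whose product destabilises mRNA, was at 44 ± 5.47 and 31.9 ± 3.64 CPM. The study states that organs were taken right after sacrifice, washed in cold PBS and put in Trizol. The labels give no times for a mouse, and the part of handling was not tested.

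The other hepatocyte lists, the sex-biased ones aside, had medians within 0.11 of 0 over all 6 libraries. Some went beyond this with 1 library left out. Fetal liver genes were at 0.33 without WT mouse E and -0.02 without KO mouse F. Conjugation enzymes were at -0.19 without KO mouse C and periportal genes at -0.16 without WT mouse D. Transcription factors of hepatocyte identity were split 13 to 12. The pioneer factors Foxa1 (16.4 ± 4.18 CPM in WT and 33.2 ± 13.3 CPM in KO) and Foxa2 (23.8 ± 3.12 and 31.6 ± 5.04 CPM) and the factor Gata4 (log2 fold change 0.38) were higher with an unadjusted p under 0.05. Pericentral genes were split 12 to 12. Among them Avpr1a, Cyp1a2 (519 ± 130 and 744 ± 69.2 CPM), Notum (0.51) and Gulo (0.34) were higher at that p, and the glutamate carrier Slc1a2 (148 ± 18.7 and 99.9 ± 28.6 CPM) was lower. Periportal genes were split 12 to 13 with 0 at that p. Cytochrome P450 and flavin oxidases were split 20 to 18, with Cyp1a2, Cyp2c54 (118 ± 16.8 and 156 ± 13.1 CPM), Cyp4a32 and Cyp4f15 (0.33) higher.

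Amino acid catabolism had 26 of 63 genes higher and 37 lower, with a median of -0.03. Tat, tyrosine aminotransferase, was at 1882, 1661 and 1689 CPM in WT and 1020, 1315 and 1294 CPM in KO, without overlap (log2 fold change -0.53), and Hibch, an enzyme of valine breakdown, was lower too (-0.48). The urea cycle had 6 of 17 higher and 11 lower, among them Otc, ornithine transcarbamylase (-0.36). Bile acid genes were higher in 17 of 29, among them the sterol exporter subunit Abcg8 (0.49). Slc10a2, the apical bile salt carrier of bile duct cells and ileum, was at 50.2, 28.7 and 16.5 CPM in WT and 10.6, 12.3 and 9.18 CPM in KO, without overlap (-1.57, SE 0.39, edgeR adjusted p 0.429).

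Iron and haem genes were split 18 to 14. Hamp, which encodes hepcidin, the hormone that holds back iron export, was at 307 ± 94.3 CPM in WT and 520 ± 127 CPM in KO. The transferrin receptor Tfrc was at 27.1 ± 4.54 and 17.4 ± 4.03 CPM and was called lower with the covariate (edgeR adjusted p 0.0735), and Hfe2, the hemojuvelin that raises hepcidin, was at a log2 fold change of -0.34. Antioxidant genes had 10 higher and 16 lower of 26. Osgin1, a target of the factor NRF2, was at 88.8, 98.9 and 61.7 CPM in WT and 210, 294 and 106 CPM in KO and was called higher with the covariate (edgeR adjusted p 0.0379), whereas Nfe2l2, which encodes NRF2, was at -0.47 and Pgd, the pentose phosphate enzyme after G6pdx, at -0.45. Conjugation enzymes had 23 higher and 35 lower of 58 (median -0.09), with the carboxylesterase Ces3b called higher with the covariate (164 ± 53.5 and 322 ± 95.9 CPM) and the glutathione transferase Gstt3 called lower (32 ± 9.72 and 16.9 ± 9.67 CPM, edgeR adjusted p 0.0960). Fetal liver genes were higher in 9 of 13 tested, among them Lpl, lipoprotein lipase (1.07).

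Some genes called with the covariate were picked after their values had been seen. The acyl-CoA thioesterases Acot3 and Acot4, the fatty acid hydroxylase Cyp4a10, the peroxisome division factor Pex11a and the lipoprotein receptor Vldlr were called lower, with log2 fold changes in that fit of -1.99, -0.72, -1.05, -0.63 and -1.39. In each of them KO mouse F lay below WT mouse E and KO mice A and C below WT mice B and D, while the groups as a whole overlapped. Acot4, a peroxisomal thioesterase, was at 40.1, 39.6 and 83.2 CPM in WT and 19.8, 27.3 and 53.3 CPM in KO. Without WT mouse E the fold changes of Acot3 and Vldlr in the fit without covariate were 0.25 and 0.42. Cyp4a32, of the family of Cyp4a10, was at 9.91 ± 4.56 CPM in WT and 24.8 ± 2.14 CPM in KO and was called higher (edgeR adjusted p 0.0670), and reads may be shared between such close paralogs. Gatm, the first enzyme of creatine synthesis, was at 8.80, 9.86 and 19.8 CPM in WT and 18.4, 18.6 and 35.5 CPM in KO and was called higher.

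Interferon-stimulated genes encode antiviral and antigen-handling proteins in hepatocytes and macrophages alike. Many carry the interferon response element near their start, which holds the letters GAAANNGAAA. These letters were in the 250 upstream bases of 23 of the 41 tested members with a promoter entry (56.1%), on either strand, and in 2.977% of all promoters. The stretches of 3 members described here are shown as above because the element sets the list apart, with the motif in capitals, which on the reverse strand reads TTTC on both sides of the gap.
Slfn9: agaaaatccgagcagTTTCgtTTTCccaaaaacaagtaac
Ifit1: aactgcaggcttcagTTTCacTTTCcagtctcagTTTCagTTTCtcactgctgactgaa
Isg15: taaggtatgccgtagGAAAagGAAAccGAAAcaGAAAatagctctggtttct
They lie at chr11:82991851-82991890 (- strand), chr19:34640770-34640828 (+ strand) and chr4:156200860-156200911 (- strand).

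Of 54 interferon-stimulated genes, all tested, 49 were lower and 5 higher in KO, with a median of -0.35. With an unadjusted p under 0.05 there were 4 lower and 0 higher, and the study called 2 members. Samd9l, an antiviral restriction factor, was at 17.8, 11.3 and 31.5 CPM in WT and 5.66, 2.18 and 8.66 CPM in KO (log2 fold change -1.87, SE 0.60, edgeR adjusted p 0.550, with the covariate 0.0960). Slfn9, of the Schlafen family, was at 3.91, 2.69 and 4.54 CPM in WT and 1.51, 0.560 and 1.41 CPM in KO (-1.68, SE 0.40, edgeR adjusted p 0.413, with the covariate 0.0960). Neither overlapped between the groups. The RNA sensor Ifih1 was at 37.2 ± 6.56 CPM in WT and 25.2 ± 4.94 CPM in KO. Ifit1, which binds viral RNA ends, was at 3.51 ± 1.51 and 1.30 ± 0.764 CPM, and the ubiquitin-like modifier Isg15 at 3.10 ± 1.40 and 2.34 ± 1.48 CPM. Of the members with the promoter motif 21 of 23 were lower (median -0.40), and of those without it 15 of 18 (median -0.27).

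The interferon list score did not separate the groups, at -0.09, 0.25 and 0.43 in WT and -0.26, -0.61 and 0.29 in KO. KO mouse F lay above WT mice B and D and below WT mouse E. KO minus WT was -0.51 over the 4 mice with Y-linked transcripts and -0.14 between mice F and E, and the median ran from -0.70 without KO mouse F to -0.15 without KO mouse C.

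Kupffer cell and macrophage genes were lower in KO for 27 of 28 tested, with a median of -0.36 and with 4 lower and 0 higher at an unadjusted p under 0.05. The scavenger receptors Msr1 (16.4 ± 2.39 CPM in WT and 9.71 ± 3.41 CPM in KO), Marco (9.41 ± 4.85 and 3.82 ± 1.68 CPM) and Cd163 (33.7 ± 2.30 and 24.5 ± 5.82 CPM) were among the 4. Clec4f, a lectin that marks Kupffer cells in the liver, was at 76.2, 118 and 92.7 CPM in WT and 62.8, 61.3 and 113 CPM in KO. Cd5l, a secreted macrophage protein, was at 60.2, 116 and 70.2 CPM in WT and 42.8, 36 and 83.3 CPM in KO. For both, KO mouse F lay among the WT mice. The list summed to between 612 and 933 CPM in WT, to 464 and 425 CPM in KO mice A and C and to 806 CPM in KO mouse F. The score was lower in KO by 0.67 over the 4 mice with Y-linked transcripts and higher by 0.11 in mouse F than in mouse E, and the median ran from -0.73 without KO mouse F to -0.18 without WT mouse D. Macrophages also express many interferon-stimulated genes, and their part in that list was not tested.

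**Figure D4:**
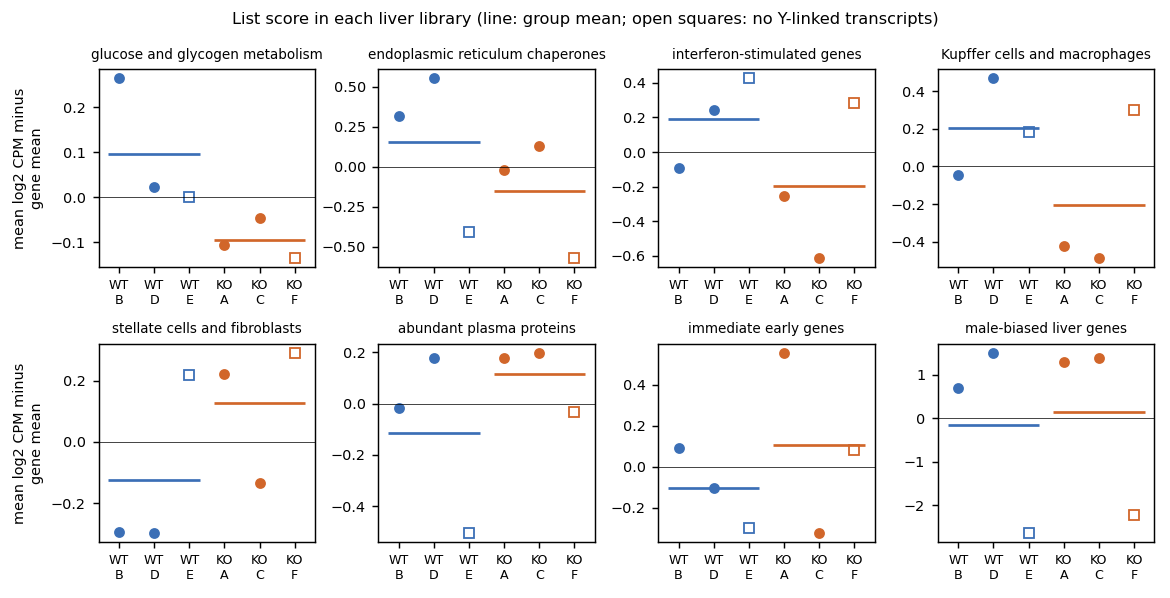
List score of 8 lists in each liver library (mean over the genes of log2 CPM centred on each gene's mean), with lines for group means and open squares for mice E and F, which lack Y-linked transcripts. Of these 8 lists only glucose and glycogen metabolism has all KO libraries below all WT libraries, and male-biased genes are low in mice E and F.

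Stellate cell and fibroblast genes lay on the higher side. Of 32 tested, 25 were higher in KO, with a median of 0.29 and with 7 higher and 1 lower at an unadjusted p under 0.05. The study called 2 of them. Col6a3, a chain of collagen VI, was at 13, 12 and 21.2 CPM in WT and 31.6, 24.7 and 36.4 CPM in KO, without overlap (log2 fold change 1.0, SE 0.24, edgeR adjusted p 0.413, with the covariate 0.0256). Reln, reelin, which stellate cells secrete, was at 128, 122 and 140 CPM in WT and 228, 155 and 183 CPM in KO, also without overlap (0.54, SE 0.16, edgeR adjusted p 0.460). The stellate transcription factors Hand2 (9.15 ± 1.93 CPM in WT and 14.4 ± 3.44 CPM in KO), Tcf21 (3.69 ± 0.938 and 6.30 ± 1.35 CPM) and Lhx2 (2.49 ± 0.424 and 4.09 ± 1.05 CPM) were higher. So were the growth factor receptor Pdgfrb (11 ± 1.13 and 15.3 ± 2.06 CPM) and the matrix proteoglycan Bgn (50.8 ± 11.6 and 72.9 ± 9.66 CPM).

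Other markers of these cells did not follow. Dcn, decorin, was at 90.5 ± 10.3 CPM in WT and 90.7 ± 11.5 CPM in KO. Reck, a membrane inhibitor of metalloproteases, was lower, at 10.7, 7.68 and 7.15 CPM in WT and 4.88, 3.58 and 4.22 CPM in KO (log2 fold change -1.01, SE 0.23, edgeR adjusted p 0.392). The list score overlapped between the groups, with WT mouse E (0.22) beside KO mice A (0.22) and F (0.29). KO minus WT was 0.34 over the 4 mice with Y-linked transcripts and 0.07 between mice F and E, and the median ran from 0.18 without WT mouse D to 0.50 without WT mouse E. Endothelial genes were higher in 24 of 33, with a median of 0.08 that ran from 0.04 without WT mouse D to 0.18 without WT mouse E. Eng, endoglin (56.8 ± 8.59 and 79.4 ± 8.18 CPM), and Lyve1 (3 ± 1.44 and 5.68 ± 1.61 CPM) were higher with an unadjusted p under 0.05, and the basement membrane collagen Col15a1 was lower (17.6 ± 2.64 and 7.99 ± 2.64 CPM).

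Blood cell lists rested on few tested genes. Of 12 B cell genes 10 were lower, with a median of -0.90 that was -0.12 without WT mouse D. The list summed to 319 CPM in mouse D and to between 30.6 and 70.1 CPM in the other 5 libraries. Igkc, the kappa light chain, was at 127 CPM in mouse D and between 9.18 and 26.7 CPM elsewhere. Ighm, the IgM heavy chain, was at 45.9, 139 and 21.6 CPM in WT and 9.88, 8.51 and 6.36 CPM in KO, without overlap (log2 fold change -3.06, SE 0.78, edgeR adjusted p 0.473), and without mouse D the value was -2.03. Pax5, the B cell identity factor, was at 1.22 ± 0.0534 CPM in WT and 0.553 ± 0.303 CPM in KO. Antigen-presenting cell genes were higher in 9 of 11, T and NK cell genes in 4 of 10, neutrophil and monocyte genes in 1 of 6, erythroid genes in 2 of 9 and megakaryocyte genes in 3 of 4, with 0 genes at an unadjusted p under 0.05. Mesothelial genes were higher in 2 of 3, with Wt1 at that p (1.95). Bile duct genes were lower in 7 of 12, with the junction protein Ppl at that p (-1.12), and adipose genes in 1 of 2, with Fabp4 (-0.78). The single exocrine pancreas gene tested was higher without reaching that p.

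Genes that differ between male and female mouse liver followed the Y-linked transcripts. The male-biased list scored 0.69 to 1.49 in mice A, B, C and D and -2.63 and -2.22 in mice E and F, and the female-biased list 2.97 and 2.49 in mice E and F and -1.75 to -0.67 in the others. In the fit without covariate 0 members of either list had an unadjusted p under 0.05 for genotype. Each genotype held mice with and without Y-linked transcripts, so these genes spread widely within a genotype and this 0 says little. With the covariate 5 of 28 male-biased members tested were higher and 1 lower at that p, and 1 of 13 female-biased members was higher and 3 were lower, against the 5.02% higher and 7.55% lower over all genes in that fit. Among them the male-biased glucuronosyltransferase Ugt2b38, at 3.04, 3.2 and 0 CPM in WT and 16.4, 11.4 and 0.261 CPM in KO, was called higher (log2 fold change in that fit 2.18, edgeR adjusted p 0.0256), and the female-biased Acot3 was called lower (-1.99, edgeR adjusted p 0.0735). Reads of Ugt2b38 may be shared with close paralogs. Glucocorticoid targets had 9 of 24 higher and 15 lower, with a median of -0.17 that ran from -0.36 without KO mouse F to 0.03 without KO mouse C. Tsc22d3, which encodes the glucocorticoid-induced leucine zipper, was at -0.93, and the chromatin factor Arid5b was at 82.8 ± 19.8 CPM in WT and 176 ± 65.5 CPM in KO. Cell cycle genes had 13 of 30 higher and 17 lower (median -0.07), with 1 higher (E2f8) and 5 lower at an unadjusted p under 0.05. The 5 were Spc25, the condensin subunits Smc2 (-1.55) and Smc4 (-1.61), the proliferation marker Mki67 (-1.14) and the ribonucleotide reductase subunit Rrm2 (-0.89).

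The direction of a difference moved with the GC content of the exons. In 5 bins of 2812 genes from low to high GC content the median log2 fold change was -0.127, -0.041, 0.0039, 0.045 and 0.079. The bin of lowest GC content held 340 of the 656 genes that were lower with an unadjusted p under 0.05 and 32 of the 403 that were higher. The bin of highest GC content held 53 and 151. With a GC offset per library, an option added once the data were known, the medians of the bins lay between -0.0055 and 0.0088. The edgeR fit then called 0 genes without the covariate and 70 with it, 63 of them among the 93. The list medians under that offset were -0.17 for glucose metabolism, -0.26 for ER chaperones, -0.30 for interferon-stimulated genes, -0.40 for Kupffer cell genes, 0.27 for stellate cell genes, 0.11 for plasma proteins and -0.82 for B cell genes. With offset and covariate the edgeR adjusted p was 0.0464 for Eif3j1, 0.0524 for Nemf, 0.0925 for Eif2s2, 0.0464 for Hspa5, 0.0402 for Hsp90b1 and 0.0435 for Col6a3. Of 41 genes described here and called with the covariate, 8 were no longer called, with edgeR adjusted p of 0.106 for Npm1 and Ccdc3, 0.109 for Mettl5 itself, 0.122 for Slfn9, 0.131 for Eif2ak2, 0.132 for Spc25 and Tfrc and 0.159 for Leap2. Their log2 fold changes moved less, from -0.68 with the covariate alone to -0.58 for Npm1, from -0.70 to -0.62 for Eif2ak2, from -1.43 to -1.33 for Mettl5 and from -0.79 to -0.69 for Leap2.

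**Figure D5:**
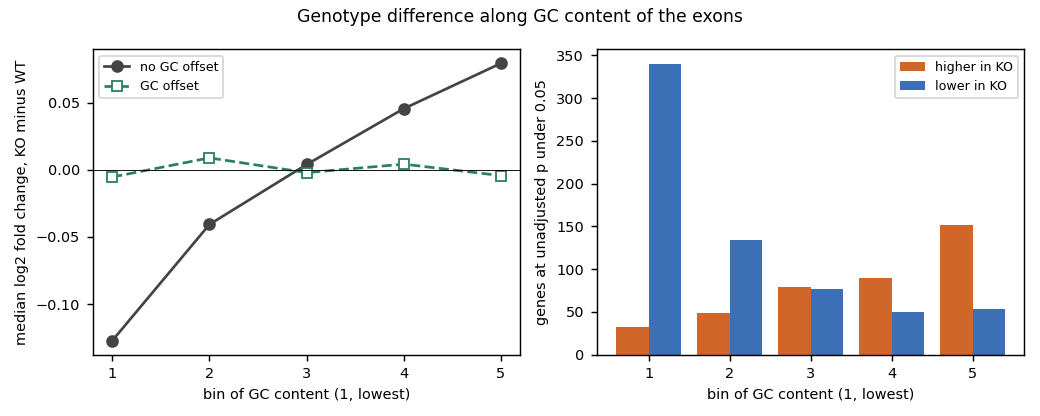
Genotype difference in 5 bins of exon GC content, from low (1) to high (5): median log2 fold change with and without a GC offset (left) and number of genes with an unadjusted p under 0.05 in each direction (right). Without the offset the median goes from -0.127 to 0.079, and the bin of lowest GC content holds 340 genes lower in KO.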

How the data were processed

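Liver RNA of 3 KO and 3 WT mice was grouped by the labels. The authors prepared stranded total RNA libraries, trimmed the reads with Trimmomatic, aligned them with STAR 2.7.3a to mm10 and counted them by strand over exons with featureCounts. The deposited values are raw counts per gene. FastQC 0.11.5 was among the tools in the submitters' processing notes.

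In R 4.3.3, edgeR 4.0.16 gave TMM-normalised CPM and, after its filter on low counts, a robust quasi-likelihood test by genotype. P-values were adjusted by Benjamini-Hochberg over 14075 genes, with calls under 0.1, and measure the spread between these 6 mice. The covariate marks the 2 libraries with under 100 counts over 4 Y-linked genes. Alternatives were DESeq2 1.42.0, other filters and scalings, all 12 libraries, each library left out and, added after the data had been seen, GC offsets (a lowess smooth of span 0.3 per library). The fit was also run on simulated counts. These had the same dispersion for every gene, no difference between mice with and without Y-linked transcripts and no GC trend. The outcome is not given here and is no support for the calls in these mice. Of 55487 genes, 55141 were matched to a symbol.

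Members and lists were chosen with earlier results of these data known. Leading genes are, in each direction, the 12 smallest p-values among genes without overlap between genotypes and with a mean of at least 1 CPM, leaving out lipid, clock, heat shock, mitochondrial and Y-linked genes, Xist and provisional or Zfp names. In each list the 3 smallest p-values and the 3 highest genes could be named, and Mettl5 and Ssb always. Genes outside this rule, such as the other members with an unadjusted p under 0.05, those with a promoter motif and Mug1, C8b, Gatm, Gstt3, Ugt2b38, Acot3, Acot4, Cyp4a10, Pex11a and Vldlr, were chosen after their values were seen. Some genes counted in the lists are not reported here by name.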

Additional observations from a re-analysis of the deposited data

How the results depend on the processing

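The number of genes called was 0 with RLE scaling, without mitochondrial genes, with a filter at 1 CPM, with the legacy quasi-likelihood method and with the GC offset alone, 171 with DESeq2, 93 with the Y-linked covariate, 70 with both GC offset and covariate, 14 without the 2 libraries lacking Y-linked transcripts, 3 with no filter and 3 with all 12 libraries. With 1 library left out it ran from 0 to 76, the 76 (6 higher, 70 lower) without WT mouse D and 2 without KO mouse C. The 403 genes higher at an unadjusted p under 0.05 became 619 with no filter, 627 with all 12 libraries, 706 with the covariate and 735 with the GC offset and covariate, and 258 to 555 with 1 library left out (258 without WT mouse B); the 656 lower ones became 1063 with the covariate and 474 to 779 with 1 library left out. The cause of these differences was not tested.

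Among the genes described, Calr was at 0.027 with the covariate, 0.0083 with all 12 libraries and 0.0057 with the GC offset and covariate, and between -0.28 and 0.14 with 1 library left out, and Alb at 0.0014 with no filter, 0.016 with all 12 libraries, 0.0028 and 0.011 with the GC offset without and with the covariate, and between -0.11 and 0.060 with 1 library left out. With 1 library left out, Pdia6 ran from -0.48 to 0.10, Dcn from -0.062 to 0.11, Igkc from -1.88 to 0.96, Vldlr from -3.04 to 0.42 and Acot3 from -4.97 to 0.25. Over 129 genes and 17 alternatives, 2020 of 2191 log2 fold changes kept their direction and side of the threshold, 149 newly passed it and 22 changed sign; of 663 list medians 628 moved by less than the spread between mice. The adjusted p over the alternatives (edgeR and DESeq2) ran up to 0.964 for Enho, Adgrf1, Anks4b, Hsp90b1, Hspa5, Pklr, Slfn9, Samd9l and Col6a3, from as low as 2.15e-05, 4.69e-08, 7.04e-05, 0.00108, 0.0267, 0.0357, 0.0317, 0.00546 and 0.0152. No paired analysis was possible because the KO and WT liver libraries share no mouse letter and, although the study speaks of pairs, which mice formed a pair is not given in the sources used here. Depth limits genes under about 1 CPM, which had few counts per library.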
